A study of Mus musculus with 6 samples.

Results

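The genes described here make cholesterol, control its synthesis through the sterol regulatory element binding proteins (SREBPs), move it within and out of cells, and build fatty acids. They are 30 of the 24147 genes or gene copies in the deposited tables, chosen by symbol, and each was found on 1 line. By role they are 7 genes of the mevalonate arm, 11 of the squalene and sterol arm, 5 of SREBP control, 2 of intracellular sterol transport, 2 of cholesterol efflux and 3 of lipogenesis. All 30 passed the filter on low counts. The RNA came from wild-type C57BL/6 mice, 2 months old, whose lens fiber cells had been removed through an incision in the cornea as a model of cataract surgery. What was sequenced is the lens capsule with the epithelial cells left on it, with 3 libraries from eyes sampled at once (0 h) and 3 from eyes sampled 24 h after surgery (24 h). All 6 libraries are from operated eyes, so there is no unoperated control, and how many animals or eyes went into each is not stated in the sources used. Libraries are called the first, the second and the third of their time, after the replicate numbers in the labels.

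Cholesterol is built from acetyl-CoA, first to mevalonate and isoprenoid units, then to squalene, and from squalene through lanosterol to cholesterol. The genes of this route are switched on together by SREBP-2, a transcription factor held in the membrane of the endoplasmic reticulum. When sterols run low, the escort protein Scap carries it to the Golgi, where proteases release it; when sterols are plentiful, Insig proteins keep Scap in place. SREBP-1 acts more on fatty acid genes, and the oxysterol-sensing LXR receptors switch on efflux pumps and Srebf1 itself. Lens fiber membranes are among the most cholesterol-rich of the body, and inherited defects of sterol synthesis are a known cause of cataract.

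The libraries held 8069314 to 10862573 counts, and 3 counts correspond to 0.301 to 0.384 CPM, the gene count scaled to library size by the TMM method. All 10 lens epithelial markers on the list were detected, led by Cryaa and Cryab, crystallins that fibers also hold. Their summed level was 86765 to 146308 CPM at 0 h and 53538 to 67322 CPM at 24 h, most of it from Cryaa and Cryab. By the test given below, 6 of the 10 were lower, against 13.0% of all genes tested. The other 4, Cryaa among them, were not called. Markers of other cells were present too. The 12 lens fiber markers, led by Crygs and Cryba2, summed to 15327 to 26376 CPM at 0 h and 6569 to 7241 CPM at 24 h. The 12 photoreceptor and retina markers, Gnat1 among them, summed to 2259 to 6804 CPM at 0 h and 1243 to 5314 CPM at 24 h, with the highest sum of each time in the second library. Of 14 neutrophil markers 13 were found, led by Itgam and Csf3r, and their sums were 8.42 to 17.0 CPM at 0 h and 115 to 218 CPM at 24 h, with Elane at 0 in every library and Retnlg, Mmp8 and Ngp at 0 at 0 h. The 14 monocyte and macrophage markers, led by Mertk and Lyz2, summed to 98.9 to 194 CPM at 0 h and 164 to 280 CPM at 24 h. The 12 pigmented and ciliary epithelial markers, led by Dct and Tyrp1, spanned 421 to 606 CPM at 0 h and 153 to 1245 CPM at 24 h. The 10 fibroblast and corneal markers, led by Pdgfra and Col1a2, spanned 502 to 861 CPM and 181 to 684 CPM, with Kera, a keratocyte gene, at 0 in every library. Most of each sum came from Pdgfra and Col1a2, and other genes of the list rose. By the test given below, 4 of the 7 tested were higher (Col1a1, Col3a1, Krt12 and Krt5) and 1 lower (Col1a2). The median log2 fold change over the 7 was 3.95. Those 4 had low means before the rise, from 0.67 CPM for Col3a1 to 3.95 CPM for Col1a1. Except for Col1a1, their libraries overlapped between the times. In tissue of this kind, fewer cells of a type and less RNA per cell cannot be told apart, and the part of these cells in the results was not tested.

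At 24 h, 10 of the 18 enzyme genes of cholesterol synthesis were higher and 8 were not called, while Srebf1, the efflux pump gene Abca1 and the desaturase gene Scd2 were lower. By edgeR's quasi-likelihood test (adjusted p under 0.05 over all genes tested), 10 of the 30 genes were higher and 3 lower. Of all 13956 genes tested, 15.2% were called higher and 13.0% lower. The share higher among the 30 was 33.3% and the share lower 10.0%. All 10 higher genes were among the 18 enzymes of the synthesis arms, of which 0 were lower, and all 18 had a fold change above 1. The median log2 fold change was 0.70 over the 18 enzymes, -0.54 over the other 12 genes and -0.03 over all genes tested. The count of 10 was 6 when the first or the second 0 h library, or the first or the third 24 h library, was left out, and 4 when tested against a 1.5-fold change. The 6 genes that stayed higher whichever library was left out were Hmgcs1, Idi1, Fdft1, Sqle, Msmo1 and Ebp.

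Every 24 h library lay above every 0 h library for 11 of the 30 genes, against 22.9% of all genes tested, and below for 5, against 21.8%. Of the 11 higher ones 10 were synthesis enzymes. The plot of levels in every library shows this separation and also how far the 0 h libraries spread for some genes.

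**Figure D1:**
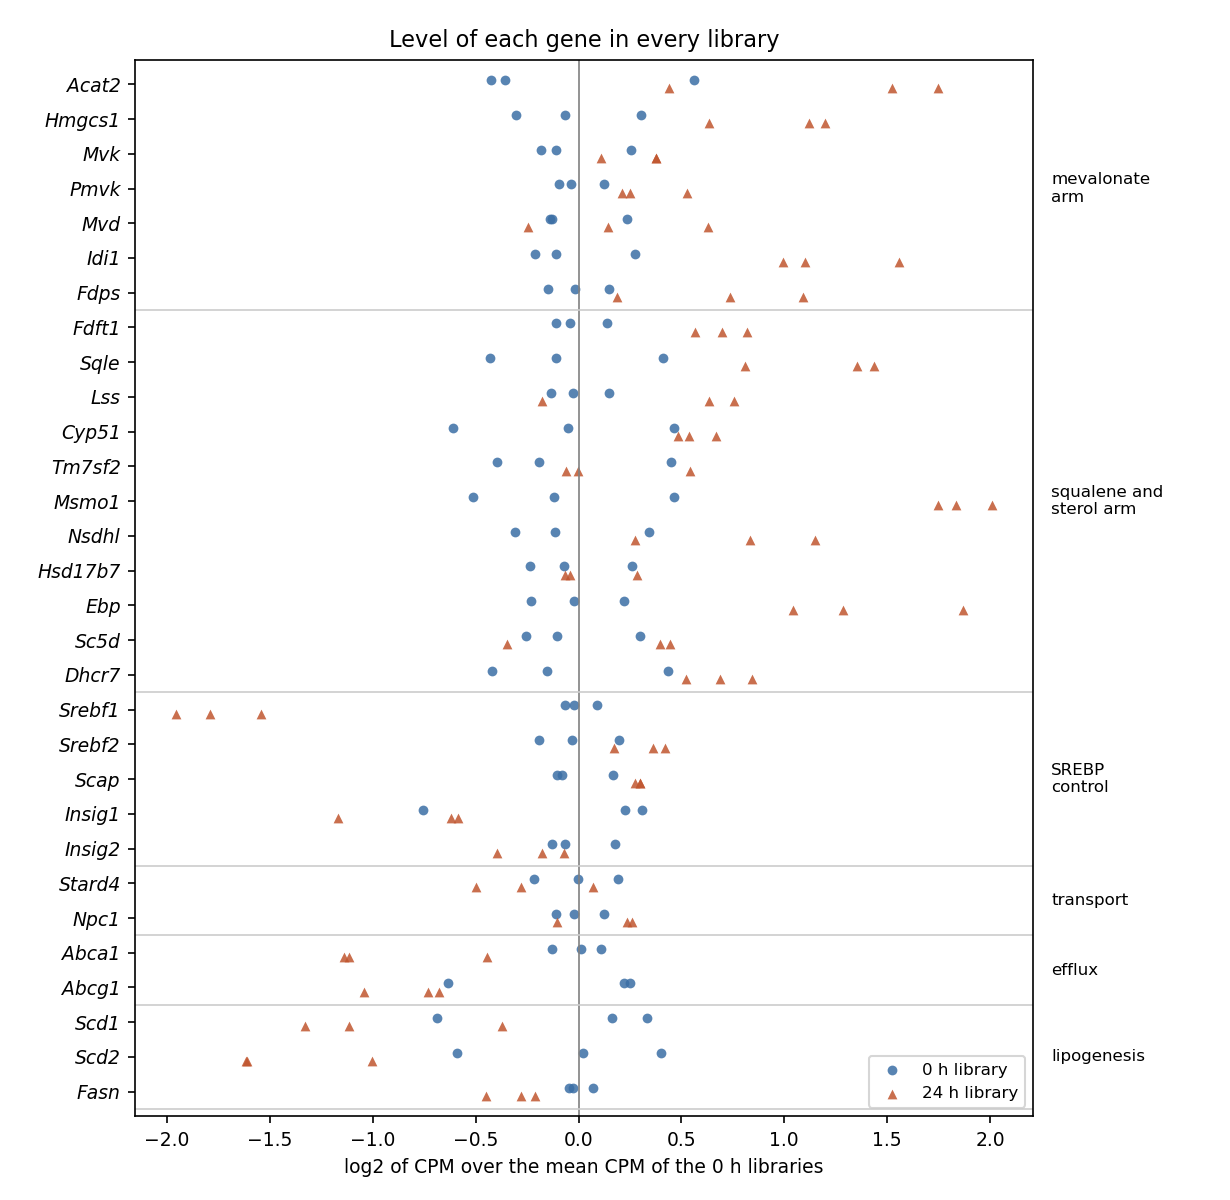
Each row is a gene and each point a library (circles, 0 h; triangles, 24 h); the x axis is the log2 of its CPM over the mean CPM of the 3 libraries at 0 h. Triangles of Msmo1, Ebp, Idi1 and Sqle lie right of all circles, and those of Srebf1, Abca1 and Scd2 left of all circles.

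Promoter sequences are given for Msmo1, Ebp, Idi1 and Hmgcs1, which rose together, and for Abca1, which fell, so that the letters searched for can be seen. RefSeq windows (GRCm38.p6, 250 bases before to 50 after the transcription start) matched 22 of the 30 genes by symbol. Both strands were searched for TCACNCCAC, the core of the sterol element that SREBPs bind, for CCAAT, the letters bound by NF-Y, and for GGGCGG, the GC box of Sp1. These factors are known partners at sterol-regulated promoters. Sites for LXR, which switches on efflux pumps, were not searched for, in Abca1 or elsewhere. Matches are in capitals, on whichever strand they lie, and no base lies in more than 1 match in these 5 windows. The windows are chr8:64733529-64733828 (minus strand) for Msmo1, chrX:8193463-8193762 (minus strand) for Ebp, chr13:8885356-8885655 (plus strand) for Idi1, chr13:119690101-119690400 (plus strand) for Hmgcs1 and chr4:53159846-53160145 (minus strand) for Abca1.
Msmo1: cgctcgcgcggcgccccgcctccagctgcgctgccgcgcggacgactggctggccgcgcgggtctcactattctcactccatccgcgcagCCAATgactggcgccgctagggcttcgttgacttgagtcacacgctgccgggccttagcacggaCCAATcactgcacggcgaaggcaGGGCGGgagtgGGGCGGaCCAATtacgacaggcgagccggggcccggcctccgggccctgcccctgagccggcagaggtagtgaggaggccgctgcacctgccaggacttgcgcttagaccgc
Ebp: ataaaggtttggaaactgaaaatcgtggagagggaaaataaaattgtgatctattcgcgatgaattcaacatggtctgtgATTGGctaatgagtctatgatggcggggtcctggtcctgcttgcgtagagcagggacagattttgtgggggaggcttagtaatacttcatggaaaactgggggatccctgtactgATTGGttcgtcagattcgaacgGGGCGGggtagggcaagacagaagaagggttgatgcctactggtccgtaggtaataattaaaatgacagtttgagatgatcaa
Idi1: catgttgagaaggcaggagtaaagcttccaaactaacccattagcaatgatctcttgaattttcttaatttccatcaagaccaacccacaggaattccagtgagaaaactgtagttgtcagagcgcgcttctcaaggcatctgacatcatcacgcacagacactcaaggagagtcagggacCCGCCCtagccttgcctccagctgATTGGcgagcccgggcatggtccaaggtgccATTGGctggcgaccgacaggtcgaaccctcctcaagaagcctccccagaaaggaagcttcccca
Hmgcs1: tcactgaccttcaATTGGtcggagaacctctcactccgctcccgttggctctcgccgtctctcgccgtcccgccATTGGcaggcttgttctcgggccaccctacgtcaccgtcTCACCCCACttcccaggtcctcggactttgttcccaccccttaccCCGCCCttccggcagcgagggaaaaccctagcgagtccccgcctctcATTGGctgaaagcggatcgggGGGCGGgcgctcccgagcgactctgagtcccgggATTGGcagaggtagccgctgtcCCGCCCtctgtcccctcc
Abca1: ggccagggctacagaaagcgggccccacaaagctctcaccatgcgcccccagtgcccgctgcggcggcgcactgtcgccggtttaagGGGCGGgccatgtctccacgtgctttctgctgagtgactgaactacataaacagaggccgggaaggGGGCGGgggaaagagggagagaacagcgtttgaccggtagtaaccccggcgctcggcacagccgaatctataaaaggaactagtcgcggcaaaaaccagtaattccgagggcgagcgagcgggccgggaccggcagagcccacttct

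Hmgcs1 held the sterol core as TCACCCCAC, beginning 137 bases before the start, together with 4 CCAAT and 3 GGGCGG matches. Msmo1 held 3 CCAAT and 2 GGGCGG matches, Ebp 2 and 1, Idi1 2 and 1, and Abca1 0 and 2. At least 1 CCAAT match was found in 19 of the 22 genes (86.4%), against 41.1% of all 27025 genes with a window and 42.9% of the tested genes with one. GGGCGG was found in 20 (90.9%), against 38.2% and 68.0%. The exact sterol core was found in 1 (4.55%), against 1.44% and 1.42%. Allowing 1 mismatch, a search added after the data were seen, gave 10 (45.5%), against 26.7% and 29.2%. CCAAT was held by 6 of the 7 higher genes with a window, by 12 of the 13 that were not called and by 1 of the 2 lower ones, Srebf1, which has it in 2 of its 3 windows. A match describes letters only, and its absence from a window says nothing about the factor.

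In the mevalonate arm, 4 of 7 genes were higher and 0 lower, with a median log2 fold change of 0.72, and 2 of them stayed higher in the same 4 fits. Hmgcs1 (chromosome 13, 119690351 to 119708260), which makes HMG-CoA, stood at 131, 111 and 170 CPM at 0 h and 315, 214 and 299 CPM at 24 h. All 3 later libraries were above the earlier ones, and the rise was 2.01-fold (log2 fold change 1.01 ± 0.21 SE, adjusted p = 0.00845). Idi1 (chromosome 13, 8885606 to 8892396), which isomerises the isoprenoid unit IPP, stood at 34.4, 37.0 and 48.2 CPM at 0 h and 85.4, 79.4 and 117 CPM at 24 h. Its groups were far apart, with a 2.36-fold rise (adjusted p = 0.00233). Fdps, which makes farnesyl diphosphate, had 32.1, 29.3 and 36.0 CPM at 0 h and 54.1, 37.0 and 69.1 CPM at 24 h. The lowest later value was just above the highest earlier one, and the 1.65-fold rise (adjusted p = 0.0416) was called in 1 of the 6 fits that leave out a library, the one lacking the second 24 h library (adjusted p from 0.00857 to 0.124).

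Acat2 (chromosome 17, 12943042 to 12960725), the cytosolic thiolase that joins acetyl-CoA units at the head of the route, was the least abundant of the 30 per length at 0 h. It had 4.31, 4.51 and 8.54 CPM at 0 h and 16.6, 7.86 and 19.5 CPM at 24 h, with the second 24 h library below the third 0 h library. The 2.54-fold rise (log2 fold change 1.35 ± 0.41 SE, adjusted p = 0.0386) was called in 2 of the 6 fits with a library left out, those lacking the third 0 h or the second 24 h library (adjusted p from 0.0132 to 0.118). Its close copy Acat3 (chromosome 17, 12923959 to 12940396), looked at after the values were seen, had 1, 2 and 3 counts at 0 h and 67, 15 and 73 counts at 24 h. Reads shared between such copies may have been split or dropped in counting, so both levels are uncertain.

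The kinases Mvk and Pmvk and the decarboxylase Mvd, which carry mevalonate on to IPP, had mean levels of 11.8 to 16.1 CPM at 0 h and 13.8 to 19.7 CPM at 24 h. None was called (adjusted p = 0.312 for Mvk, 0.219 for Pmvk and 0.582 for Mvd). The 3 later libraries of Pmvk were nevertheless all above the earlier ones. Their 95% intervals, which are not adjusted for the number of genes, reached log2 fold changes of 0.74, 0.76 and 0.83, so a rise as large as that of Fdps is inside them.

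**Figure D2:**
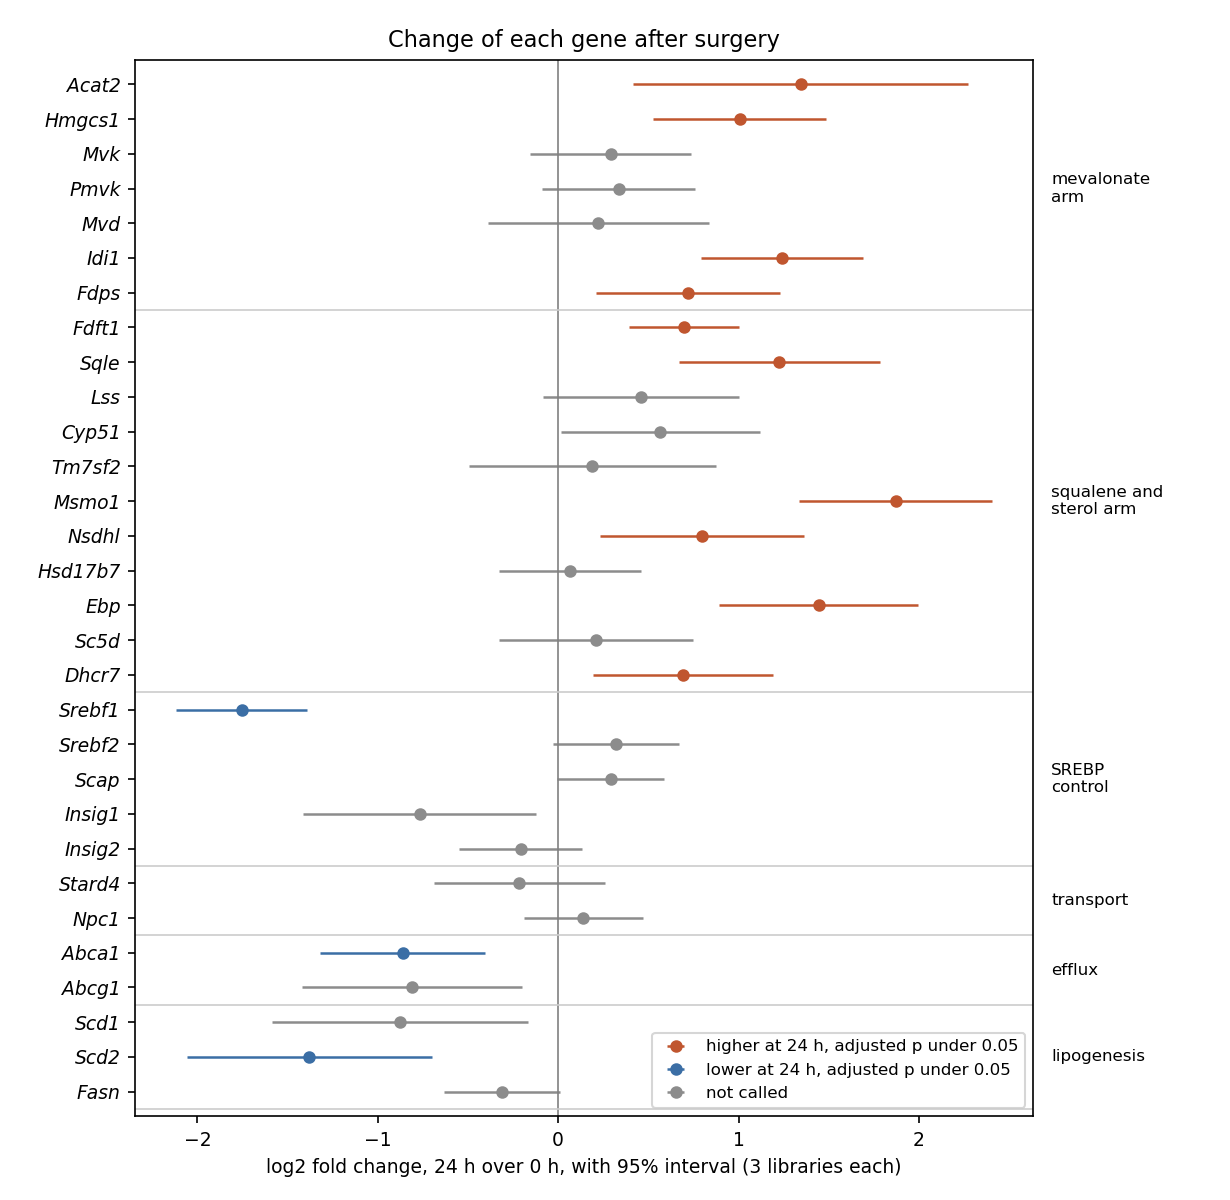
Each row is a gene; the point is its log2 fold change, 24 h over 0 h, and the bar its 95% interval from 3 libraries at each time, not adjusted for the number of genes. Synthesis enzymes lie between 0.07 and 1.87, and Srebf1 (-1.75) and Scd2 (-1.38) lie farthest left.

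In the squalene and sterol arm, 6 of 11 genes were higher and 0 lower, with a median log2 fold change of 0.69. Fdft1, squalene synthase, had 59.3, 56.5 and 67.2 CPM at 0 h and 108, 90.5 and 99.1 CPM at 24 h. Values within a time were close together, and the rise was 1.62-fold (adjusted p = 0.00545). Sqle, squalene epoxidase, a rate-limiting step of this arm, had 39.3, 49.2 and 70.5 CPM at 0 h and 143, 92.8 and 135 CPM at 24 h. The rise was 2.34-fold (adjusted p = 0.00666), with no overlap between times. Reads of Fdft1 may be touched by Ctsb, which shares 774 bases of its deposited span, since no source used states the strand setting of the counting.

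Msmo1 (chromosome 8, 64718145 to 64733578), the methylsterol oxidase that begins removal of the C4 methyl groups, rose most of the 30. Its libraries stood at 27.5, 36.0 and 53.9 CPM at 0 h and 131, 139 and 158 CPM at 24 h. The lowest later value was far above the highest earlier one, a 3.66-fold rise (log2 fold change 1.87 ± 0.24 SE, adjusted p = 0.000794). Ebp (chromosome X, 8185331 to 8193512), the sterol isomerase, had 12.4, 14.3 and 17.0 CPM at 0 h and 35.6, 30.1 and 53.3 CPM at 24 h. It rose 2.72-fold without overlap (adjusted p = 0.00303). Msmo1, Ebp, Sqle and Idi1 were called under all 13 alternatives, the test against a 1.5-fold change included.

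Nsdhl, which acts with Msmo1 in the demethylation, had 32.8, 28.7 and 44.9 CPM at 0 h and 63.2, 42.9 and 78.6 CPM at 24 h. The second 24 h library lay inside the earlier range, and the rise was 1.74-fold (adjusted p = 0.0417). Dhcr7, which makes cholesterol from 7-dehydrocholesterol, had 30.2, 36.3 and 54.5 CPM at 0 h and 57.9, 64.9 and 72.3 CPM at 24 h. It rose 1.62-fold (adjusted p = 0.0440), without overlap. With a library left out, Nsdhl was called in 2 of 6 fits, those lacking the third 0 h or the second 24 h library (adjusted p from 0.0146 to 0.129), and Dhcr7 in 1, that lacking the third 0 h library (adjusted p from 0.00927 to 0.13).

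The other 5 sterol enzymes were not called. Cyp51, lanosterol demethylase, had 55.1, 81.1 and 116 CPM at 0 h and 118, 122 and 134 CPM at 24 h. The times did not overlap, but the 0 h libraries were far apart (adjusted p = 0.116), and with the third of them left out the log2 fold change was 0.89 against 0.57 and was called (adjusted p = 0.0226). Lss, which closes squalene epoxide into lanosterol, had 29.0, 27.0 and 32.7 CPM at 0 h and 49.9, 26.1 and 45.9 CPM at 24 h. Its second 24 h library was below all 0 h libraries (adjusted p = 0.189), and without it Lss was called (adjusted p = 0.0180). Tm7sf2, a sterol reductase, Hsd17b7, the ketoreductase of demethylation, and Sc5d, the sterol desaturase before Dhcr7, had log2 fold changes of 0.19, 0.07 and 0.21 with overlapping libraries (adjusted p = 0.683, 0.813 and 0.558).

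The libraries of a time differed in a shared way over these enzymes. Among the 0 h libraries, the third was the highest for 16 of the 18 enzymes and for all 10 that were called, while it was the highest for 4873 of the 13956 genes tested. Among the 24 h libraries, the second was the lowest for 13 of the 18 and the third the highest for 11. Over all genes tested, that second library was the lowest for 4877. The summed level of the 18 enzymes was 615, 635 and 877 CPM at 0 h and 1346, 1079 and 1448 CPM at 24 h. Photoreceptor markers summed to 4187, 6804 and 2259 CPM and to 3316, 5314 and 1243 CPM in the same libraries, so the retinal signal was lowest at each time where the enzymes were highest. Neutrophil and macrophage marker sums were highest in the third library of each time, at 17.0 and 194 CPM at 0 h and at 218 and 280 CPM at 24 h. The fibroblast and corneal sum was 765, 502 and 861 CPM at 0 h and 427, 181 and 684 CPM at 24 h. That sum, mostly Pdgfra and Col1a2, was highest in the third library and lowest in the second at each time. The enzymes had that order at 24 h, but at 0 h their lowest sum was in the first library. The pigmented and ciliary sum was 436, 606 and 421 CPM at 0 h and 1245, 153 and 790 CPM at 24 h. It was lowest in the third library at 0 h and in the second at 24 h. The part of these cells in the spread was not tested.

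Of the SREBP control genes, Srebf1 was lower and the other 4 were not called. Srebf1 (chromosome 11, 60199089 to 60220604), which encodes both forms of SREBP-1, had 460, 426 and 413 CPM at 0 h and 125, 112 and 148 CPM at 24 h. The groups lay far apart, and the fall was 3.37-fold (log2 fold change -1.75 ± 0.16 SE, adjusted p = 0.000189). It was called under all 13 alternatives, with log2 fold changes from -1.87 to -1.66. Gene counts do not separate those forms, and Srebf1 shares 107 bases of its span with Rai1. Beside this fall, 6 of 10 lens epithelial markers and 9 of 12 lens fiber markers were lower at 24 h, against 13.0% of all genes tested. Of 12 pigmented and ciliary markers 6 were lower and 3 higher. The part of these cells in the fall was not tested.

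Srebf2, which encodes SREBP-2, had 152, 170 and 199 CPM at 0 h and 223, 196 and 232 CPM at 24 h. Its log2 fold change was 0.32 with a 95% interval of -0.03 to 0.67 (adjusted p = 0.154). Scap had 92.7, 91.4 and 110 CPM at 0 h and 121, 119 and 121 CPM at 24 h. All later libraries were above the earlier ones, by 1.22-fold on average (adjusted p = 0.132). Insig2, a sterol-responsive anchor of Scap, had means of 48.0 ± 5.45 and 41.5 ± 4.68 CPM (SD, n = 3) and was not called (adjusted p = 0.341).

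Insig1, the anchor of Scap that is itself a known SREBP target, was not among the genes that rose. It had 116, 230 and 243 CPM at 0 h and 131, 87.2 and 128 CPM at 24 h. Its low 0 h library, the first, fell inside the later range, and the log2 fold change was -0.77 with an interval of -1.41 to -0.12 (adjusted p = 0.0762). With that library left out it was called lower (adjusted p = 0.0148), and DESeq2 also called it lower (adjusted p = 0.0346).

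Genes that move sterols inside cells did not pass the test. Stard4, a carrier of sterols between membranes, had means of 21.6 ± 3.05 CPM at 0 h and 18.6 ± 3.73 CPM at 24 h (SD, n = 3, adjusted p = 0.486). Npc1, which exports cholesterol from lysosomes, had 89.8 ± 7.28 and 98.9 ± 13.4 CPM (adjusted p = 0.520). Their 95% intervals ran from -0.69 to 0.26 and from -0.19 to 0.47 on the log2 scale.

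Both efflux pumps were at lower levels in every 24 h library. Abca1 (chromosome 4, 53030789 to 53159895), which loads cholesterol onto apolipoproteins, had 94.7, 88.7 and 80.4 CPM at 0 h and 40.5, 39.9 and 64.5 CPM at 24 h. The fall was 1.82-fold (log2 fold change -0.86 ± 0.20 SE, adjusted p = 0.0131). It was not called when the first library of either time was left out, where adjusted p reached 0.0556. Abcg1, which passes cholesterol to HDL particles, had 23.8, 24.3 and 13.2 CPM at 0 h and 12.8, 12.3 and 9.94 CPM at 24 h. It stood just beyond the threshold (adjusted p = 0.0521) and was called lower without the third 0 h library (adjusted p = 0.0183), with DESeq2 (adjusted p = 0.0335) and without the low-count filter (adjusted p = 0.0489). Markers of macrophages, cells known to express both pumps, went both ways, with 4 of 14 higher and 4 lower. These shares, 28.6% each, stand beside 15.2% and 13.0% of all genes tested. The higher ones were Mertk and, named after their values were seen, Cd68, Cd14 and Tyrobp. The lower ones, also named after their values were seen, were Csf1r, Mrc1, Cd163 and Cx3cr1. The part of these cells in the fall of the pumps was not tested.

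Of the lipogenic genes, 1 of 3 was lower. Scd2 (chromosome 19, 44293676 to 44306862), a desaturase that makes monounsaturated fatty acids, was the most abundant of the 30 per length at both times. It had 2031, 3106 and 4036 CPM at 0 h and 997 CPM in the lowest and 1525 CPM in the highest library at 24 h. The groups did not overlap, and the fall was 2.60-fold (log2 fold change -1.38 ± 0.30 SE, adjusted p = 0.00968), called under all 13 alternatives. Scd1, its close relative (chromosome 19, 44394450 to 44407709), had 80.2, 145 and 163 CPM at 0 h and 51.4, 59.7 and 99.7 CPM at 24 h. The times overlapped (adjusted p = 0.0676), and Scd1 was called lower with the first 0 h library left out (adjusted p = 0.0329), with the third 24 h library left out (adjusted p = 0.0133), with DESeq2 (adjusted p = 0.0271) and without the low-count filter (adjusted p = 0.0471). Fasn, fatty acid synthase, had 349, 374 and 345 CPM at 0 h and 293, 261 and 307 CPM at 24 h. Every later library was below the earlier ones, by 1.24-fold on average, and it was not called (adjusted p = 0.137). The gene copies Scd3 and Scd4 beside them had at most 2.30 CPM on average at either time.

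Levels per length (RPKM, TMM-scaled CPM per kilobase of the deposited gene length) changed order between the times. At 0 h the leading genes were Scd2 at 561 ± 184 RPKM, Srebf1 at 101 ± 5.65 and Insig1 at 74.1 ± 26.3 (SD, n = 3). At 24 h they were Scd2 at 215 ± 55.7 RPKM, Msmo1 at 78.3 ± 7.39 and Hmgcs1 at 77.2 ± 15.3, and the last pair did not differ beyond its spread. Srebf1 moved from rank 2 to rank 10, and Msmo1 from rank 10 to rank 2. Summed over the synthesis arms, the level went from 709 ± 146 to 1291 ± 191 CPM, and summed over Scd1, Scd2 and Fasn from 3543 ± 1044 to 1531 ± 347 CPM. Most of the latter sum was Scd2, at 3058 ± 1004 CPM at 0 h and 1174 ± 304 CPM at 24 h, while Scd1 and Fasn were not called.

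**Figure D3:**
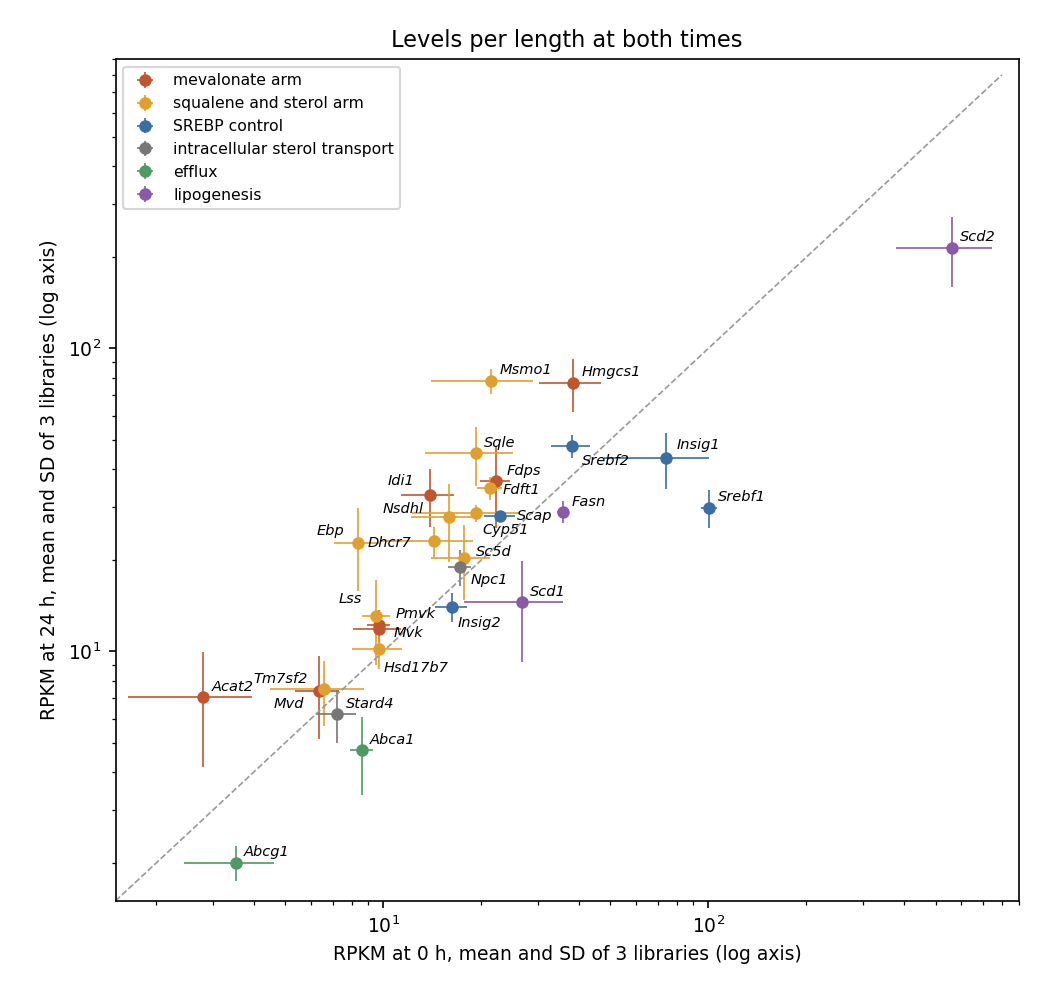
Each point is a gene, with its mean RPKM at 0 h on the x axis and at 24 h on the y axis (both log axes), bars giving the SD of 3 libraries; on the dashed line levels are equal. Synthesis enzymes lie on or above the line, with Msmo1 at 78.3 RPKM at 24 h, and Srebf1, Scd2 and Abca1 lie below it.

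Other genes of the pathway were taken from 5 lists with 73 genes, of which 72 passed the low-count filter, and 12 were higher and 14 lower. These shares, 16.7% and 19.4%, stand beside 15.2% and 13.0% of all genes tested. Among 11 further enzymes of sterol and isoprenoid synthesis 3 were higher and 1 lower. Nus1, a subunit of the enzyme that makes dolichol from the same isoprenoid units, was named after its values were seen. It had 26.4, 30.2 and 28.1 CPM at 0 h and 45.7, 50.2 and 39.4 CPM at 24 h, a 1.60-fold rise without overlap (adjusted p = 0.0103).

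Of 14 genes of lipoprotein uptake and endosomal cholesterol 3 were higher and 2 lower. Tmem97, a sterol-regulated partner of Npc1, had 8.82, 10.2 and 9.27 CPM at 0 h and 18.7, 23.8 and 17.6 CPM at 24 h, a 2.12-fold rise (adjusted p = 0.00533). Lrp8, a receptor for reelin and apolipoprotein E, rose 1.84-fold (adjusted p = 0.0207). It was named after its values were seen, as were the lower genes Mylip, a ubiquitin ligase induced by LXR, and Gramd1b, which carries cholesterol from the plasma membrane. Leaving out the first or the second library of either time lowered the count of lower genes to 1.

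SREBP processing and sterol-regulated degradation gave 1 higher and 3 lower of 12. Syvn1, a ubiquitin ligase of the endoplasmic reticulum, rose 1.47-fold (adjusted p = 0.0264), and Paqr3, a Golgi anchor of Scap, fell 1.82-fold (adjusted p = 0.0191). The other lower genes, named after their values were seen, were Mbtps1, the first protease that cuts SREBPs, and Pgrmc2. These calls were not stable, since no gene was lower with the first or the third 0 h library or the first 24 h library left out. Syvn1 was not called when the first or the second 0 h library or the second 24 h library was left out (adjusted p up to 0.0776).

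Of 16 genes of esterification, oxysterols, LXR and lipoproteins 2 were higher and 3 lower. Nceh1, which hydrolyses cholesterol esters, rose 3.86-fold from 31.5 ± 5.17 to 122 ± 10.8 CPM (adjusted p = 0.000121). Ch25h, which makes 25-hydroxycholesterol, an oxysterol that holds back SREBP processing and activates LXR, ranged from 8.52 to 15.9 CPM at 0 h and from 42.0 to 61.8 CPM at 24 h, a 4.16-fold rise (adjusted p = 0.000816). The lower genes, named after their values were seen, were Rxra, the partner of LXR, the apolipoprotein gene Apoe and the transporter gene Abca2, and 0 of the list were lower when the third 0 h library was left out.

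Among 19 genes of fatty acid synthesis and desaturation 3 were higher and 5 lower, with a median log2 fold change of -0.58. Lpin1, a phosphatidate phosphatase, fell 1.98-fold (adjusted p = 0.00150), and Acsl4, which activates polyunsaturated fatty acids, rose 2.13-fold to 50.8 ± 8.63 CPM (adjusted p = 0.00232). Named after their values were seen, the other higher genes were Acly, which supplies cytosolic acetyl-CoA, and Elovl1. The other lower genes were Acacb, Fads2, Thrsp and Acsl3. The lower genes numbered 2 when the third 0 h or the second 24 h library was left out, and 3 when the second 0 h library was. The plot of the other lists shows the calls gene by gene.

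**Figure D4:**
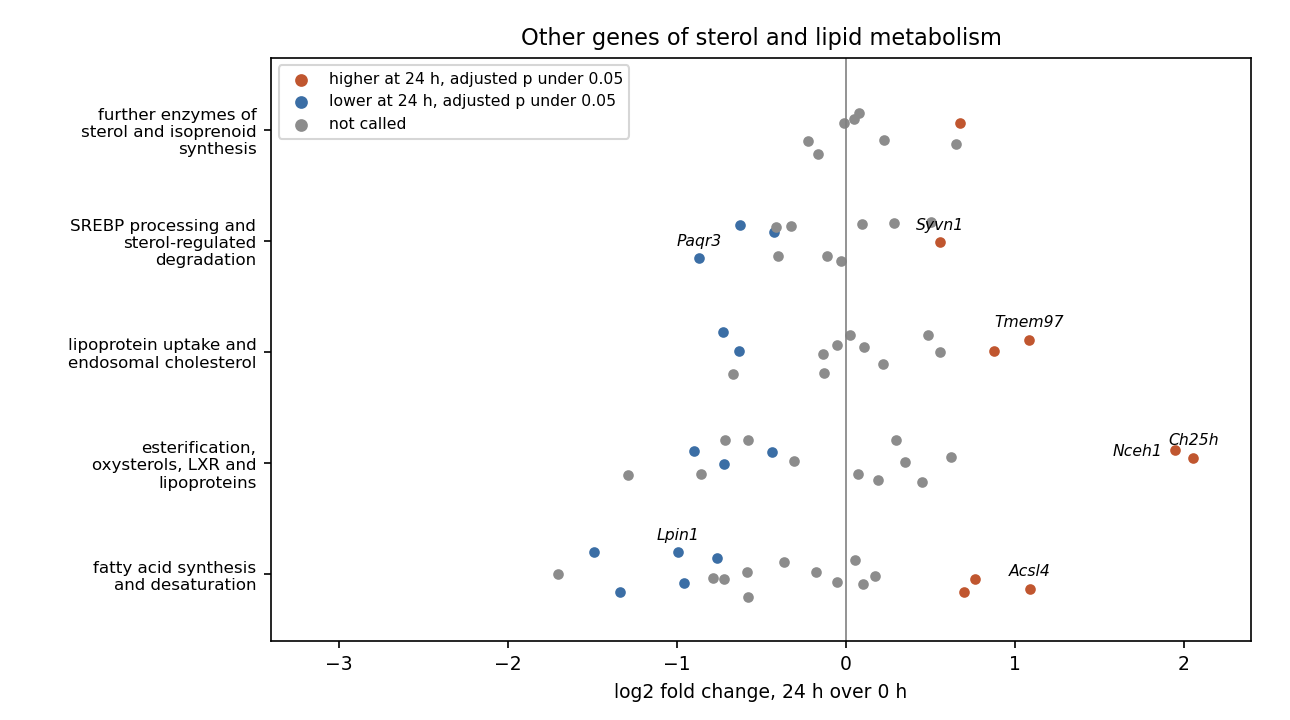
Each point is a gene of these lists that is reported here, placed by its log2 fold change (x axis, 24 h over 0 h) and its list (rows, with a small vertical scatter for legibility); colour gives the call. Labelled genes are those named by the lowest p of each list, from Lpin1 at -0.99 to Ch25h at 2.06.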

How the data were processed

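Read counts per gene were deposited by the authors for each of the 6 libraries, beside RPKM values that equal, per the file headers and the values, the count over gene length and over the library's summed counts. The deposited RPKM values entered no test. Per the submitters' processing notes, the build was mm10 and the tools included TopHat2 2.1.0, HTSeq 0.6.1p1 and edgeR 3.16.5, beside Trim Galore 0.4.4, SAMtools 1.4, FastQC and bedtools 2.17. No source used states the annotation or strand setting, and the labels' protocols describe the library kit as stranded in 1 place only. Coordinates are as deposited.

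Counts were filtered with filterByExpr, scaled by TMM and compared between 24 h and 0 h by the two-sided quasi-likelihood test of edgeR 4.0.16 in R 4.3.3, without covariates. P-values were adjusted by Benjamini-Hochberg over all 13956 genes tested, and 0.05 was the threshold. CPM of each library, and their mean ± SD, are TMM-scaled. The SE of a log2 fold change is the change over the square root of the F statistic, and 95% intervals use it. The script was tested on simulated counts. Alternatives were RLE scaling, library totals, no filter, DESeq2 1.42.0, limma-voom (limma 3.58.1), a test against a 1.5-fold change, the replicate block and leaving out each library.

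The series calls the libraries biological triplicates, and no pair within a time agreed within sampling noise. The 30 genes and all lists were chosen with earlier results of these data known. All 30 are named. Of each other pathway list the 2 genes with the lowest p are named, and of each marker list the 2 with the highest mean CPM. Any further name was chosen after the values were seen. Some genes that these rules would name are not reported here. They are counted in the totals of their lists and left out of the plot of the other lists. No explanation was tested.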

Additional observations from a re-analysis of the deposited data

How the results depend on the processing

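Over the 13 alternatives, 343 of 390 results for single genes of the 30 kept their direction and their side of the threshold, 29 lost the call, 14 gained one and 4 changed sign. The changes of sign were in genes never called. With the third 24 h library left out, the log2 fold change was -0.035 for Mvd and -0.024 for Tm7sf2. Hsd17b7 had -0.042 when the second 0 h library was dropped and -0.016 when the first 24 h library was. Over all fits that drop a library the highest values were 0.41, 0.50 and 0.24 for these 3 genes. Against a 1.5-fold change 4 of the 30 were higher and 2 lower, and over all genes 1060 and 629, against 2125 and 1817 in the test used for the text. The lower count was 5 without the low-count filter and 6 with DESeq2. The higher count was 8 with limma-voom, under which Acat2 and Fdps were not called. With a library left out, 6 to 10 of the 30 were higher and 2 to 4 lower, and 1551 to 1897 and 1041 to 1648 over all genes. RLE scaling and library totals changed none of the counts over the 30.

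The labels number the libraries of each time 1 to 3. Deviations from the group means correlated at 0.09, 0.22 and 0.40 for equal numbers and at -0.35 to 0.17 for unequal ones. Each 0 h library correlated most with the 24 h library of its own number. In the other direction, 24 h replicate 1 correlated more with 0 h replicate 2 (0.17) than with 0 h replicate 1 (0.09). The test used for the text did not take the numbers as pairs, and whether libraries of equal number share a source of variation was not tested. With a replicate block 11 of the 30 were higher and 5 lower. The block added Cyp51 to the higher genes (adjusted p = 0.0270) and Abcg1 (0.0259) and Scd1 (0.00384) to the lower ones, and changed no other call among the 30.

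At 3 libraries a time the precision is limited: the 95% intervals of the 17 genes not called were 0.59 to 1.42 wide on the log2 scale.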
